A study of Mus musculus with 23 samples.

Results

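Glutathione S-transferases were followed in liver RNA through 10 genes: the theta-class genes Gstt1, Gstt2 and Gstt3, the pi-class genes Gstp1 and Gstp2, the alpha-class genes Gsta2, Gsta3 and Gsta4, and the mu-class genes Gstm1 and Gstm3. They were 10 of 22852 genes listed in the tables of both sexes, and all 10 passed the filter on low counts in every comparison. The genes were picked because Gstt3 was lower in LKO than in control livers of both sexes and because Gstp1 and Gstp2 lie near Cpt1a on chromosome 19. The LKO against control values of these genes were therefore used in choosing them, and they are given as a description without p-values. How many of the 10 passed the test on this contrast, and which, is stated only as a description, beside the share over all genes, and nothing is read from it.

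Livers came from B100 mice of 4 groups: 5 B100 control males (replicates 1, 2, 3, 4 and 6), 6 B100 LKO males, 6 B100 control females and 6 B100 LKO females. LKO is the ablation of Cpt1a in the liver that the series title names, and how it was made is not given in the sources used here. Cpt1a encodes the carnitine palmitoyltransferase that lets long-chain fatty acids enter mitochondria. Every animal, control or LKO, had eaten the diet labelled WD for 16 weeks and was in the fed state at necropsy. Ages and the makeup of B100 and WD are not given in the labels. Each library is a numbered sample of its group, and nothing in the labels says more of its origin, so p-values measure the spread between these libraries.

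Glutathione S-transferases couple the thiol of glutathione to reactive electrophiles, such as products of lipid peroxidation and of drug oxidation, so that the conjugate can be exported and excreted. The cytosolic enzymes act as dimers and are grouped into classes by sequence. Many are abundant in hepatocytes, and the pi class is long known for a higher level in male than in female mouse liver. Transcription of several of these genes is raised through antioxidant response elements bound by Nrf2, the product of Nfe2l2.

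Total counts per library ran from 14224665 to 19626662, and the smallest was that of control male replicate 4. Cpt1a, which checks the labels, was 300.8 to 426 CPM (counts scaled to library size, with TMM factors) in control males and 41.7 to 95.8 CPM in LKO males. It was 287 to 436 CPM in control females and 62.3 to 87.6 CPM in LKO females, so every LKO library lay below every control library of its sex. All 7 hepatocyte markers examined (among them Alb and Ttr) had counts in every library. Of the marker lists for other cells, Ly6g for neutrophils and Cpa1 and Amy2a5 for pancreas were unlisted or at 0 in every group, and Prss2 for pancreas in control females. Bulk RNA cannot tell fewer cells of a type from less RNA per cell.

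The coding sequences bear on how well reads can tell these genes apart, so the starts of a pi and a theta pair are shown first. Gstm1 and Gstm3, 80.0% identical over their coding parts and so closer than the theta pair, are not shown. Over the 633 coding bases of GENCODE M21 (GRCm38), Gstp1 and Gstp2 were 98.1% identical. Coding bases 1 to 90 are written 5′ to 3′, with capitals at the 6 bases that differ between the pair.
Gstp1: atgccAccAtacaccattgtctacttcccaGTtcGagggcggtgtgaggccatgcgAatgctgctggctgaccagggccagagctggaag
Gstp2: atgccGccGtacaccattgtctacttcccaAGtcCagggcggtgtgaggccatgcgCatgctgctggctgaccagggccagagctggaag
Gstt3 and Gstt1 were 75.8% identical over their coding parts, and Gstt3 and Gstt2 were 62.4% identical. The same 90 coding bases of the neighbouring theta genes differ at 17 positions, in capitals.
Gstt3: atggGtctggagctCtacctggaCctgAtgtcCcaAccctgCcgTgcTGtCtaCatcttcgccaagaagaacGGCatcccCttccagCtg
Gstt1: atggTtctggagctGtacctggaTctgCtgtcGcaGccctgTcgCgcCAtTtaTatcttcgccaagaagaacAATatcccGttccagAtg
Of all 50-base stretches of the longest coding transcript, 62.3% in Gstp1 and 72.6% in Gstp2 also occur in a transcript of another gene. For the processed pseudogene Gstp-ps, named here after its values were seen, the share was 71.1%. Gsta2 shared 64.2% of its stretches, most often with Gsta1, while Gstm1 shared 23.2% and Gstm3 28.8%. Gstt1, Gsta3 and Gsta4 shared none, and Gstt2 shared 1.22%. Gstt3 shared 26.0%, all with the overlapping gene model Gm20441, which is not analysed here. Whether the counting used the strand or how it placed reads that fit several genes is not given. The split of reads within the pi genes, between Gsta1 and Gsta2, and between Gstt3 and Gm20441 is therefore uncertain. The same holds for Gstm1 and Gstm3 and the genes that share stretches with them.

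Gstt3 (ENSMUSG00000001665, chr10:75609949-75617248, minus strand, mm39 positions of the deposited tables) encodes a theta-class transferase. In control males it was 42.9, 63.0, 36.3, 42.4 and 52.9 CPM, in replicate order. LKO males had 33.1, 25.3, 28.9, 26.3, 29.2 and 33.5 CPM, all below the lowest control male. Control females had 92.4, 103.7, 106.2, 90.5, 90.5 and 113.8 CPM, and LKO females had 69.3, 48.1, 53.9, 60.3, 50.6 and 50.6 CPM, again without overlap. The means were 47.5 ± 10.5 CPM (SD, n = 5) in control and 29.4 ± 3.37 (SD, n = 6) in LKO males. They were 99.5 ± 9.79 CPM (SD, n = 6) in control and 55.4 ± 7.98 (SD, n = 6) in LKO females. The LKO level was thus 61.9% of the control level in males and 55.7% in females. The log2 difference from edgeR was -0.69 (SE 0.13) in males and -0.84 (SE 0.10) in females. Leaving out 1 library at a time gave -0.77 to -0.56 in males and -0.92 to -0.80 in females. In the authors' deposited tables the corresponding log2 fold changes are -0.70 and -0.85.

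**Figure D1:**
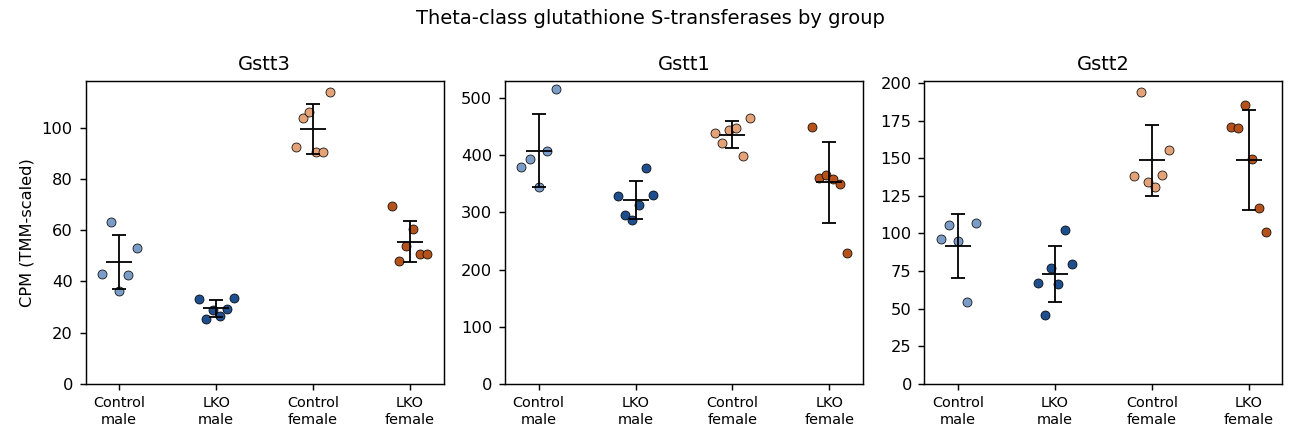
TMM-scaled CPM of Gstt3, Gstt1 and Gstt2 on linear axes from 0, 1 point per library in replicate order, with the mean and SD of each group as bars. For Gstt3 the LKO libraries lie below the controls of their sex (25.3 to 33.5 against 36.3 to 63.0 CPM in males, 48.1 to 69.3 against 90.5 to 113.8 CPM in females); the Gstt1 and Gstt2 groups overlap between genotypes.

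The comparison of females with males did not enter the choice of genes and was tested over all genes. Gstt3 rose from males to females in both genotypes. In controls the females were 1.06 higher on the log2 scale (SE 0.13, edgeR adjusted p = 0.000216), and all 6 exceeded every control male. In LKO livers the difference was 0.91 (SE 0.10, edgeR adjusted p = 3.77e-05), and again all 6 females exceeded every male. The LKO females, at 48.1 to 69.3 CPM, overlapped the control males. The genotype difference in females minus that in males was -0.15 (SE 0.17), a value built from the contrast that chose the gene and given without a test. Each sex has its own deposited table, and a sex difference cannot be told apart from one between the tables in library preparation or counting. Control groups did not overlap, higher in females, for 5.13% of all genes tested and LKO groups for 2.96%.

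The 2 theta neighbours of Gstt3 lie on the same strand. Gstt1 (chr10:75619647-75634418) lies 2.4 kb from Gstt3, on the side of the Gstt3 transcription start. Gstt2 (chr10:75666948-75673258) lies 49.7 kb from Gstt3 on the same side. Gstt1, which acts on small halogenated compounds, was 344 to 516 CPM in control males and 287 to 379 CPM in LKO males. It was 398 to 465.9 CPM in control females and 230 to 450 CPM in LKO females, where replicate 6 was lowest and replicate 1 highest. Its groups overlapped between genotypes, with log2 differences of -0.34 (SE 0.11) in males and -0.31 (SE 0.12) in females. Between the sexes Gstt1 did not pass the test, with 0.09 (SE 0.10, edgeR adjusted p = 0.551) in controls and 0.12 (SE 0.13, edgeR adjusted p = 0.590) in LKO livers.

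Gstt2 was 96.0, 105.7, 95.2, 54.4 and 106.9 CPM in control males, with replicate 4 apart from the rest, and 45.9 to 102 CPM in LKO males. Control females had 131 to 194 CPM and LKO females 101 to 185 CPM. The genotype difference was -0.33 (SE 0.20) in males and 0.00 (SE 0.15) in females, with overlapping groups. Gstt2 rose from males to females by 0.69 in controls (SE 0.16, edgeR adjusted p = 0.0117), where the groups did not overlap, and by 1.02 in LKO livers (SE 0.18, edgeR adjusted p = 0.00167), where LKO male replicate 5, at 102.4 CPM, exceeded LKO female replicate 6, at 101.0 CPM. Without control male replicate 4 the control value was 0.55. Of the 6 other genes that start within 100 kb of Gstt3, 4 were tested, and Gstt2 was the gene called between the sexes, in controls and in LKO livers. None of these 4 was called by edgeR between genotypes in either sex, where 2 in males and 1 in females had an unadjusted p under 0.05 and DESeq2 called 0.

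Gstp1 and Gstp2 lie 649.7 and 654.6 kb beyond the end of Cpt1a on the opposite strand (Gstp1 chr19:4085407-4087985, Gstp2 chr19:4090285-4096023, Cpt1a chr19:3372334-3435733). Their RefSeq promoter windows in GRCm38.p6 are shown because the pair moved together between the sexes. Each is the 250 bases before the start, minus strand, 5′ to 3′, with capitals at TGANTCAGC, a motif added after the windows had been read.
Gstp1, chr19:4037913-4038162: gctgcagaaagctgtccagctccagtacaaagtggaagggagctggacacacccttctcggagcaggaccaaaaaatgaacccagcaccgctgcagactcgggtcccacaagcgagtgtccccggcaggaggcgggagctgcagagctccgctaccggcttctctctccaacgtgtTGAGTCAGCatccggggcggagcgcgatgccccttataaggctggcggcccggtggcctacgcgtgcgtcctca
Gstp2, chr19:4042222-4042471: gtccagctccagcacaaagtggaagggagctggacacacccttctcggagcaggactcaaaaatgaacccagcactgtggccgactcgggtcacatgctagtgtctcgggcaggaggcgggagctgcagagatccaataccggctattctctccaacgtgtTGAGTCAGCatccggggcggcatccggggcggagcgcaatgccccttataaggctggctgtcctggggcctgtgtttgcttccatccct
The match begins 74 bases before the Gstp1 start and 89 bases before that of Gstp2. In all, 1.19% of 32851 windows of 300 bases hold this motif on either strand. The related core TGACNNNGC, searched in the same way, was in 12.4% of windows and among the members in that of Gsta3, 121 bases before its start, as TGACATTGC. The windows of the other members with one, Gstt1, Gstt3, Gsta2, Gstm1 and Gstm3, held neither. RefSeq windows were matched for 8 of the 10 genes. These are matches of letters, not binding sites.

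Gstp1 is the main pi-class transferase of male mouse liver. In control males it was 786, 451, 701, 2192 and 566 CPM, and replicate 4 stood far above the others. LKO males had 907, 1194, 1169, 1241, 625.2 and 740 CPM. Control females had 150 to 217 CPM (median 171), and LKO females had 211 to 357 CPM (median 250), with 1 control female, replicate 6 at 217 CPM, above the lowest LKO females. Every male library was above every female library. Over all genes tested, 5.17% in controls and 3.19% in LKO livers were lower in females without overlap.

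Between the sexes Gstp1 was lower in control females by a log2 difference of -2.40 (SE 0.34, edgeR adjusted p = 0.000567) and in LKO females by -1.91 (SE 0.18, edgeR adjusted p = 7.18e-06). Without control male replicate 4 the control difference was -1.82. The genotype difference was 0.06 (SE 0.35) in males and 0.56 (SE 0.13) in females. Male replicate 4 decided the male value, which was 0.64 without it and -0.11 without control male replicate 2. The cholangiocyte markers summed to 33.4 CPM in control male replicate 4, the lowest of the control males (49.0 to 133.7 CPM in the others), and its hepatocyte markers summed to 81120 CPM within the 57320 to 82590 CPM of the others. Its stellate sum was the lowest too, at 117.9 CPM against 172.7 to 314.9 CPM. Its pancreas sum was the highest, at 72.3 CPM against 10.6 to 26.7 CPM in the other control males. So were its macrophage sum (360.7 against 188.5 to 299.6 CPM) and its periportal sum (9582 against 5745 to 7859 CPM). The part of cell composition in the Gstp1 level of this library was not tested.

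Gstp2 was scarce: 1.88 to 3.86 CPM in control males, 2.29 to 15.6 CPM in LKO males, 0.43 to 2.02 CPM in control females and 0.98 to 3.80 CPM in LKO females. That is 7 to 267 reads per library, or 0.176% to 1.77% of the Gstp1 count. LKO male replicate 2 held the highest level, and LKO female replicate 5 was the highest of its group. Gstp2 was lower in control females by a log2 difference of -1.71 (SE 0.34, edgeR adjusted p = 0.00504) and in LKO females by -1.86 (SE 0.44, edgeR adjusted p = 0.0114), with overlapping groups in both. The genotype values were 0.97 (SE 0.41) in males, or 0.46 without LKO male replicate 2, and 0.83 (SE 0.40) in females, or 0.44 without LKO female replicate 5.

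Gstp-ps followed Gstp1 closely: its count was 8.96% to 14.3% of the Gstp1 count over the 23 libraries (median 12.5%), and control male replicate 4 was its highest library too, at 276 CPM. Adding the counts of Gstp1, Gstp2 and Gstp-ps gave 515 to 2472 CPM in control males and 697 to 1370 CPM in LKO males. The sums were 166 to 246 CPM in control females and 235 to 393 CPM in LKO females, so the order of the groups was as for Gstp1 alone. Within 1 Mb of Cpt1a, 37 of 58 other genes were tested between genotypes. edgeR called none in males and 1 in females, where it called 1.42% of all genes tested. That 1 was Gstp1, which had itself been chosen with this contrast known. Of the 37, 10 in males and 8 in females had an unadjusted p under 0.05, against 12.5% and 15.6% of all genes tested. DESeq2 tested 24 of these genes in males and called 0, where it called 1.27% of all it tested. In females it tested 39 and called 3, all higher in LKO (Gstp1, and Cabp4 and 1810055G02Rik, named here after their values were seen), where it called 3.64% of all. On FPKM, limma called 0 in either sex.

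**Figure D2:**
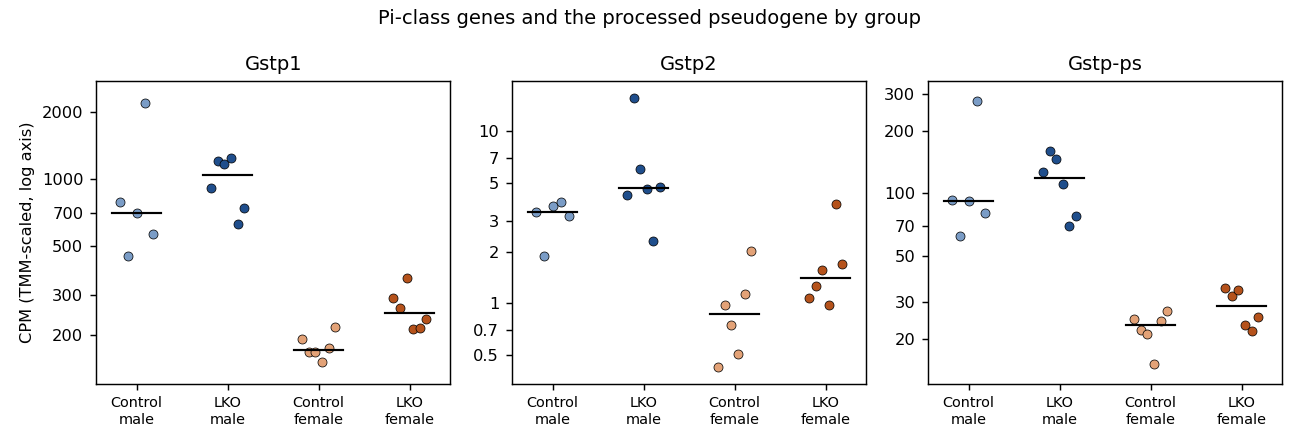
TMM-scaled CPM of Gstp1, Gstp2 and Gstp-ps on log axes, 1 point per library in replicate order, with a bar at the median of each group. Male Gstp1 libraries (451 to 2192 CPM) lie above female ones (150 to 357 CPM), and control male replicate 4 is the highest for Gstp1 and Gstp-ps.

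Among the alpha-class genes, Gsta3 had the highest CPM per kilobase. It was 991 to 1642 CPM in control males, 1176 to 1526 CPM in LKO males, 1102 to 1337 CPM in control females and 693 to 1421 CPM in LKO females. LKO female replicate 6 was apart at 693 CPM, against 1192 to 1421 CPM in the other LKO females. Its genotype differences were -0.05 (SE 0.13) in males and -0.07 (SE 0.14) in females. The sex differences, -0.16 (SE 0.12, edgeR adjusted p = 0.391) and -0.18 (SE 0.14, edgeR adjusted p = 0.452), did not pass the test.

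Gsta4, which conjugates 4-hydroxynonenal and other lipid aldehydes, was 32.9 to 61.2 CPM in control males and 36.8 to 72.0 CPM in LKO males. Control females spanned 37.0 to 46.9 CPM, while LKO females spanned 14.5 to 67.6 CPM, from replicate 6 to replicate 3. Its genotype differences were 0.11 (SE 0.20) in males and -0.10 (SE 0.25) in females. Its sex differences of -0.24 (SE 0.15, edgeR adjusted p = 0.271) and -0.46 (SE 0.28, edgeR adjusted p = 0.316) did not pass either.

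Gsta2, an alpha-class enzyme known to be inducible, was 7.05 to 20.6 CPM in control males and 12.01 to 27.7 CPM in LKO males. It was 7.0 to 18.2 CPM in control females. The LKO females had 16.0, 7.65, 30.5, 9.41, 4.60 and 3.35 CPM, a wider range than in any other group. Its genotype differences were 0.49 (SE 0.28) in males and -0.02 (SE 0.43) in females. Its sex differences were -0.24 (SE 0.26, edgeR adjusted p = 0.571) in controls and -0.75 (SE 0.43, edgeR adjusted p = 0.287) in LKO livers. Without LKO female replicate 3 the last was -1.28 and was called (edgeR adjusted p = 0.0309).

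The mu-class gene Gstm1 had the highest CPM per kilobase of gene length among the 10 genes in every group, from 1170 ± 198 (SD, n = 6) in control females to 2129 ± 614 (SD, n = 6) in LKO males. The next in order was Gstp1 in males, whose range overlapped that of Gstm1 in control males but not in LKO males. In females the next were Gstt1 and Gsta3, which overlapped each other. Gstt3 was eighth in controls of both sexes, at 12.4 ± 2.74 CPM per kilobase (SD, n = 5) in males and 25.9 ± 2.55 (SD, n = 6) in females. Gstp2 was last in every group. The order depends on the gene lengths of the deposited tables, which were 4344 bases for Gsta3, 3842 for Gstt3 and 1528 for Gstt1. The coding parts of these genes were 666, 726 and 723 bases. With the length of the transcripts present in liver the places of Gsta3 and Gstt3 could differ, and no other length was tried.

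Gstm1 was 1363 to 2772 CPM in control males, with replicate 4 lowest, and 1945 to 4226 CPM in LKO males. It was 1317 to 2165 CPM in control females and 1029 to 2746 CPM in LKO females. Its genotype differences were 0.53 (SE 0.23) in males and 0.06 (SE 0.21) in females. Gstm1 was lower in LKO females than in LKO males by a difference of -0.81 (SE 0.24, edgeR adjusted p = 0.0401). The control difference was -0.34 (SE 0.17, edgeR adjusted p = 0.199), or -0.46 and called without control male replicate 4 (edgeR adjusted p = 0.0343). The LKO call held in 4 of 12 fits that left out 1 library, namely those without LKO male replicates 1 or 5 or LKO female replicates 1 or 3.

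Gstm3, a neighbour of Gstm1 on chromosome 3, varied widely between libraries of the same group. Control males had 210, 167, 197, 27 and 68.1 CPM, with replicates 4 and 6 low. LKO males had 108, 466.4, 494, 359, 113 and 303 CPM, with replicates 1 and 5 low. The control females had 33.3 to 80.3 CPM and the LKO females 34.2 to 149 CPM. Gstm3 was lower in LKO females than in LKO males by a difference of -1.95 (SE 0.42, edgeR adjusted p = 0.00682). In controls the difference was -1.24 (SE 0.41, edgeR adjusted p = 0.0535). It was -1.498 and called without control male replicate 4 (edgeR adjusted p = 0.00305), and it was also called without control male replicate 6. Its genotype differences were 1.19 (SE 0.52) in males, or 0.93 without control male replicate 4, and 0.48 (SE 0.31) in females.

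**Figure D3:**
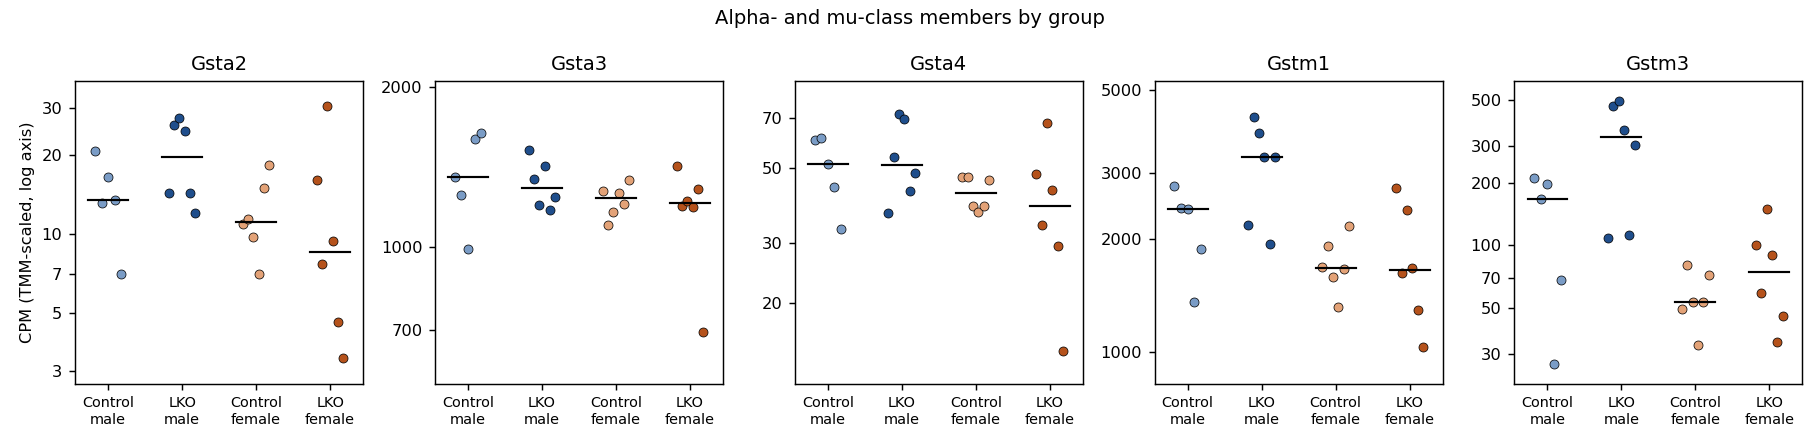
TMM-scaled CPM of Gsta2, Gsta3, Gsta4, Gstm1 and Gstm3 on log axes, 1 point per library in replicate order, with a bar at the median of each group. Genotype groups of the same sex overlap for all 5 genes, and LKO female replicate 6 is the lowest library of its group for Gsta2, Gsta3, Gsta4 and Gstm1.

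Counted over the 10 genes, edgeR called none between LKO and control males and 2 in females, Gstp1 higher and Gstt3 lower. In males DESeq2, and likewise edgeR with all 23 libraries in 1 fit, called 1 of the 10, Gstt3, lower. Over all genes tested, edgeR called 0.00724% in males and 1.42% in females (0.928% higher and 0.49% lower). Groups did not overlap for Gstt3 alone among the 10, in either sex, and 1.06% of all genes tested in males and 0.563% in females were lower without overlap. With 1 library left out, Gstp1 passed in 3 of 12 fits in females, those without control female replicate 6 or LKO female replicates 4 or 5. All of these counts and calls rest on the contrast that chose the genes, so they are a description and nothing is read from them. For the 10 genes the median log2 difference was 0.08 in males and -0.01 in females, against 0.01 in both sexes over all genes tested.

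Between the sexes 4 of 10 genes were called in controls, 2 higher in females (Gstt2, Gstt3) and 2 lower (Gstp1, Gstp2), where 18% of all genes tested were called (8.8% higher and 9.2% lower). In LKO livers 6 of 10 were called, the same 2 higher and 4 lower (Gstp1, Gstp2, Gstm1, Gstm3), where 12.4% of all genes tested were called (5.89% higher and 6.51% lower). The 4 genes called in controls were thus among the 6 called in LKO livers. The median log2 difference of the 10 was -0.24 in controls and -0.60 in LKO livers, beside 0.00 and 0.01 over all genes tested. The summed hepatocyte markers were 82778 to 99838 CPM in control females and 57319 to 82592 CPM in control males. They were 58223 to 90181 CPM in LKO females and 53894 to 75418 CPM in LKO males, and their part in the sex differences was not tested. A test of whether genotype differences differed between the sexes called 0 of 14503 genes with edgeR, where 1874 had an unadjusted p under 0.05, and DESeq2 called 88.

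**Figure D4:**
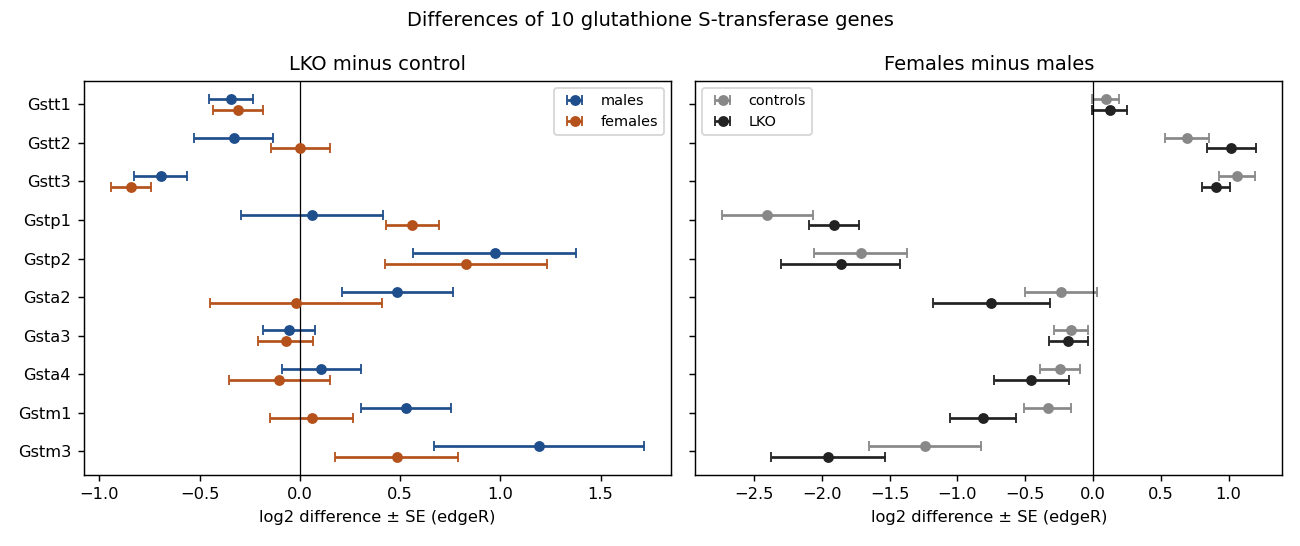
Log2 differences of the 10 genes from edgeR with their SE, derived from the F statistic, LKO minus control at left (males blue, females orange) and females minus males at right (controls grey, LKO black). Gstt3 lies at -0.69 and -0.84 at left and at 1.06 and 0.91 at right, and the pi genes lie between -2.40 and -1.71 at right.

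The other transferases and the enzymes around them were given by lists. Of 18 other transferase genes, 14 were tested: edgeR called none between genotypes in males (3 with an unadjusted p under 0.05, and 0 with DESeq2), and 1 was lower in LKO females (7 of the 14 had an unadjusted p under 0.05, and DESeq2 called 2 lower, Gstm6 and Gstm7). The gene called by edgeR was Gstm6, at -0.58 (SE 0.13, edgeR adjusted p = 0.0384), a call that held in 3 of 12 fits that left out 1 library, those without control female replicates 3 or 4 or LKO female replicate 1. Between the sexes edgeR called 2 higher and 3 lower in control females, and 1 higher and 4 lower in LKO females. Beside these counts, and those of the next 3 lists, stand the 18% of all genes tested that were called between the sexes in controls and the 12.4% in LKO livers. Mgst1, the microsomal transferase, was lower in females by a difference of -0.67 (SE 0.10, edgeR adjusted p = 0.000673) in controls and -0.60 (SE 0.08, edgeR adjusted p = 0.000171) in LKO livers. Gsta1, which shares reads with Gsta2, was also lower, at -3.01 and -2.54 (edgeR adjusted p = 0.00901 and 0.0177). Gsto1 was higher by 0.37 and 0.65 (edgeR adjusted p = 0.0299 and 0.000628), and the control call was lost without control male replicates 1, 2 or 3 or control female replicates 3, 5 or 6.

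Of 17 genes for glutathione synthesis, recycling and use, 15 were tested. In LKO females 1 was higher than in controls: Gpx4, the peroxidase that reduces lipid hydroperoxides in membranes, by 0.49 (SE 0.09, edgeR adjusted p = 0.0156), with no overlap between the groups. The call was lost when all 23 libraries were fitted together (edgeR adjusted p = 0.119). edgeR called none in males, where 1 had an unadjusted p under 0.05 and DESeq2 called 0. In females 6 of the 15 had an unadjusted p under 0.05, and DESeq2 called Gpx4 alone. Over all genes tested, 12.5% in males and 15.6% in females had an unadjusted edgeR p under 0.05. Between the sexes edgeR called 4 lower in control females and 5 in LKO females and none higher in either, and DESeq2 called 7 and 6 lower and none higher. Gpx4 was lower by differences of -1.0035 and -0.46 (edgeR adjusted p = 0.00174 and 0.0206), and the LKO call was lost without LKO male replicates 4 or 6 or LKO female replicate 5. Gclc, the catalytic subunit of the first step of glutathione synthesis, was lower by -0.50 and -0.71 (edgeR adjusted p = 0.0494 and 0.00291), and its control call held in 3 of 11 fits that left out 1 library, those without control male replicates 4 or 6 or control female replicate 1. Gsr, glutathione reductase, was lower in LKO females by -0.67 (SE 0.09, edgeR adjusted p = 0.000214). In controls its difference was -0.29 (edgeR adjusted p = 0.0503). DESeq2 called it there, as did edgeR in 3 of 11 fits that left out 1 library.

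Of 20 genes for export and mercapturate formation, 19 were tested, and edgeR called none between genotypes (2 in males and 3 in females had an unadjusted p under 0.05, and DESeq2 called 0 in both). Nat8, which acetylates cysteine conjugates, was lower in females by -3.40 in controls and -3.93 in LKO livers (edgeR adjusted p = 0.000183 and 9.55e-10). Abcc2, the canalicular pump for conjugates, was higher in control females by 0.47 (SE 0.09, edgeR adjusted p = 0.00439), and its difference in LKO livers was -0.08 (SE 0.09, edgeR adjusted p = 0.606). The change of its genotype difference with sex passed the test with DESeq2 (adjusted p = 0.014) and not with edgeR (-0.55, SE 0.12, adjusted p = 0.136). Between the sexes edgeR called 2 of the 19 higher and 2 lower in controls, and 3 higher and 2 lower in LKO livers.

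All 11 listed regulators of transferase genes, among them Nfe2l2, were tested in females and 10 in males, and none was called between genotypes by edgeR or DESeq2 or had an unadjusted edgeR p under 0.05. Between the sexes edgeR called 5 higher in females in controls and 3 in LKO livers, and none lower. DESeq2 called 5 higher in controls, and in LKO livers 3 higher and 1 lower, Nfe2l2, for which edgeR gave -0.30 (SE 0.10, adjusted p = 0.0543). Cux2, a known female-specific repressor in liver, was 7.47 and 7.13 higher on the log2 scale (edgeR adjusted p = 2.20e-06 and 7.42e-07). Nr1i3, the xenobiotic receptor CAR, was 1.30 and 0.97 higher (edgeR adjusted p = 3.78e-05 and 0.0109).

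The pattern most like that of Gstt3 was sought among 10611 genes whose counts averaged 50 or more, by the root mean square difference of log2 CPM from each gene's own mean over the 23 libraries. The 5 nearest were Rgs16 (0.32), Tm6sf2 (0.34), Afm (0.35), Sult1a1 (0.36) and Serpina3m (0.37), where a flat line would be 0.67 away. Gstt2 ranked 52 and Gstt1 ranked 389. The measure includes the differences between the sexes and between genotypes, and all 5 were called higher in females by edgeR in both genotypes. Their LKO against control differences were also below 0 and smaller in size than those of Gstt3. In males and females they were -0.31 and -0.78 for Rgs16, -0.24 and -0.25 for Tm6sf2, and -0.30 and -0.34 for Afm. They were -0.34 and -0.24 for Sult1a1 and -0.05 and -0.31 for Serpina3m. In females the LKO mean of Rgs16 was 58.4% of the control mean, beside 55.7% for Gstt3, and the Afm groups did not overlap. As likeness to Gstt3 includes the genotype difference, these values are given without a test. Rgs16 is a regulator of G-protein signalling, and Sult1a1 is a phenol sulfotransferase, another conjugating enzyme.

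Within groups, some of the 10 genes varied together from library to library. This was examined after the values had been seen, on log2 CPM minus the mean of the own group over all 23 libraries, for 45 pairs, with permutations within groups and Benjamini-Hochberg adjustment over the 45. In all 7 pairs passed with both Pearson's r and Spearman's rho, and all 7 were positive. Gsta2, Gsta4, Gstm1 and Gstm3 made up 6 of them. Gstm1 and Gstm3 had r = 0.90 (permutation p = 1e-05, the smallest that 100000 permutations can give, adjusted 0.00045) and rho = 0.92 (permutation p = 1e-05, adjusted 0.000225). Without the 2 libraries farthest out for Gstm1, LKO female replicates 6 and 1, r was 0.96. In every pair the 2 libraries left out were picked on the gene named first, so extremes of the other gene could remain. Without control male replicate 4, the lowest for Gstm3, r was 0.89. The coding parts of Gstm1 and Gstm3 were 80.0% identical, and how reads that fit several genes were placed is not given. Gsta4 and Gstm1, on different chromosomes, had r = 0.79 (permutation p = 0.00013, adjusted 0.00195) and rho = 0.86 (permutation p = 1e-05, adjusted 0.000225), and r = 0.74 without the 2 farthest libraries. Within single groups of 6 their r was 0.74 in LKO males, 0.78 in control females and 0.90 in LKO females.

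Gsta2 and Gsta4 had r = 0.86 (permutation p = 2e-05, adjusted 0.00045) and rho = 0.81 (permutation p = 6e-05, adjusted 0.00054), with r = 0.77 without the 2 farthest libraries, LKO female replicates 3 and 6. The other pairs of these 4 genes had r of 0.77 (Gsta2 with Gstm1), 0.66 (Gsta2 with Gstm3) and 0.68 (Gsta4 with Gstm3). The adjusted permutation p of these 3 was 0.0036, 0.00458 and 0.00458 for r and 0.0003, 0.00105 and 0.00045 for rho. Without the 2 libraries farthest out for the gene named first their r was 0.72, 0.64 and 0.76. The seventh pair, Gstt1 with Gsta3, had r = 0.78 (permutation p = 0.00282, adjusted 0.0181) and rho = 0.59 (permutation p = 0.00831, adjusted 0.0467), but r was 0.52 without LKO female replicates 6 and 1 and -0.22 within LKO males.

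Gstt3 passed with none of the other 9 genes. Its r was 0.49 with Gstt1 (permutation p = 0.0411, adjusted 0.168; rho = 0.51, adjusted 0.099) and 0.00 with Gsta2. All pairs share the libraries and their scaling, and the labels name no sequencing batch within which to repeat them. The cholangiocyte markers summed to 102, 75.3, 134, 33.4 and 49.0 CPM in control males, lowest where Gstm3 was low (replicates 4 and 6). In LKO males they summed to 36.0, 78.4, 161, 88.9, 48.9 and 88.1 CPM, lowest in replicates 1 and 5, as Gstm3 was. In LKO females they were highest in replicate 4 (87.8 CPM) and Gstm3 in replicate 3. In control females the cholangiocyte sums spanned 40.4 to 50.3 CPM. Other lists went partly with Gstm3 too. The stellate sums were lowest in control male replicates 4 and 6 (117.9 and 172.7 CPM) and highest among LKO females in replicate 3 (258.2 CPM). Among LKO males they were lowest in replicates 1 and 2 (142.3 and 193.8 CPM), and Gstm3 was high in replicate 2. The macrophage sum was the highest of the control males in replicate 4 (360.7 CPM). The part of cell composition in these correlations was not tested.

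**Figure D5:**
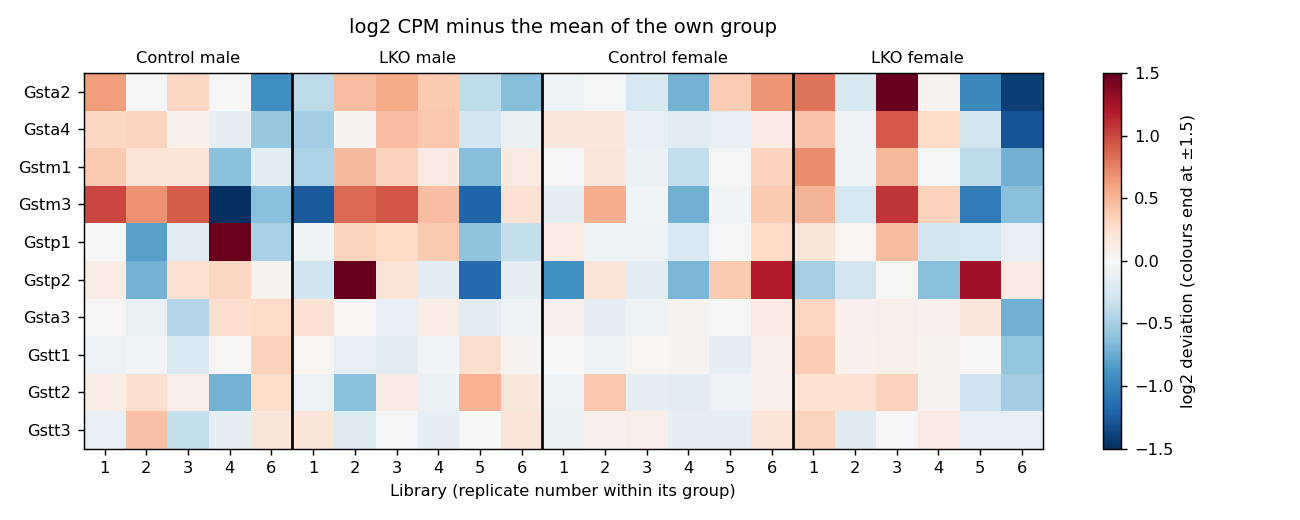
Log2 CPM minus the mean of the own group for 10 genes (rows) in 23 libraries (columns), with red above and blue below the group mean and colours ending at ±1.5. Gsta2, Gsta4, Gstm1 and Gstm3 are together above the mean in LKO female replicate 3 and below it in replicate 6, and the Gstt3 row is pale throughout.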

How the data were processed

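Liver RNA of 23 mice was compared, LKO with control within each sex and females with males within each genotype. The authors deposited 1 table per sex holding raw read counts per gene, the main input here. Beside them, the authors deposited a normalized count signal, which per the deposited values is the count over 1 size factor per library, and FPKM scaled within each table. The authors' log2 fold changes and p-values were deposited too, and only log2 fold changes are quoted. Reads were aligned with HISAT2 2.0.5 and the build was mm39, per the submitters' processing notes; the counter and its strand setting are not given in the sources used here. Per the labels' protocols, libraries were poly-A selected with dUTP.

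Counts were tested with edgeR 4.0.16 in R 4.3.3 (filterByExpr, TMM factors, quasi-likelihood test, Benjamini-Hochberg adjustment over all genes tested, adjusted p under 0.05 called). The SE given with an edgeR log2 difference is the size of that difference over the square root of its quasi-likelihood F statistic. Genotype fits used 1 sex each, and sex fits and the interaction used genes in both tables. CPM used TMM factors over all 23 libraries. FPKM were used as log2(FPKM + 1) or log2(FPKM + 0.1) in limma 3.58.1, within a table. DESeq2 1.42.0 was an alternative. The genotype and sex fits were also run on counts simulated with dispersions that edgeR had estimated. The outcome is not given here, and no result rests on it. Correlations of members used 100000 permutations. Members, lists and tests were chosen with earlier results of these data known, and the rule named all 10 members, up to 4 called genes of lowest p per list and the 5 genes most like Gstt3. Sequences are from GENCODE M21 (GRCm38) and RefSeq (GRCm38.p6), and their coordinates were not mixed with those of the tables.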

Additional observations from a re-analysis of the deposited data

Results flagged for a closer look

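In 7 of 44 groups of 5 or 6 libraries examined, for the 10 genes and Gstp3, 1 library lay far from the others of its group, by Dixon's 95% limit. In groups with a normal spread that do not depend on each other, about 1 in 20 would pass this limit. CPM need not be spread so, and the same libraries recur in these groups. No excess over chance is therefore read from the 7. Gstp3 was the only transferase outside the 10 examined in this way. Control male replicate 4 was apart for a pair of genes: Gstp1 was 2192 CPM there against 451 to 786 CPM in the other control males, and Gstt2 was 54.4 CPM against 95.2 to 107 CPM. LKO male replicate 2 had 15.6 CPM of Gstp2 against 2.29 to 6.01 CPM in the other LKO males. LKO female replicate 5 had 3.80 CPM of Gstp2 against 0.98 to 1.70 CPM. Gsta3 was 693 CPM in LKO female replicate 6 against 1192 to 1421 CPM. Gstp3, a pi-class gene 671.7 kb beyond Cpt1a that shares no 50-base stretch with the other genes, was 435 CPM in LKO female replicate 2 against 36.5 to 60.6 CPM in the other LKO females, and 89.8 CPM in control female replicate 2 against 39.8 to 55.9 CPM. Gstp1 was 263 CPM in LKO female replicate 2, within the 211 to 357 CPM of its group.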

How the results depend on the processing

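Of 369 alternative values for the sex differences of the 10 genes, 356 kept their direction and their side of the threshold, 8 lost the call and 5 gained one. All 8 losses were for Gstm1 in LKO livers. The count of the 10 genes called was 4 to 6 in controls and 5 to 7 in LKO livers when 1 library was left out. Over all genes, the 1 call between genotypes in males became 106 with DESeq2, 5 with all 23 libraries in 1 fit, 3 with at least 10 counts in every sample, and 2 with no filter, with library size alone or with the replicate number as a block; it was 1 to 2 with 1 library left out. In females 194 calls became 554 with DESeq2, 334 with the replicate block, 94 with all 23 libraries in 1 fit and 87 to 233 with 1 library left out. The replicate block gave 991 calls between the sexes in controls, against 2466, and 1512 in LKO livers, against 1708; it changed the call of 1 of the 10 genes, Gsta2 in LKO livers. Same-numbered libraries correlated by -0.002 to 0.126 between genotypes in females (4 of 6 pairs over 0.1), -0.284 to 0.364 in males (1 of 5), -0.143 to 0.116 between the sexes in controls (1 of 5) and -0.113 to 0.206 in LKO livers (1 of 6). In none was every pair over 0.1, so the numbers were not taken as pairing the libraries. This is a working rule, and such correlations cannot exclude pairing, least of all in females. The interaction gave 88 calls with DESeq2 and 0 to 17 with 1 library left out, the highest without control male replicate 4. The cause was not tested. FPKM alternatives were not run between the sexes or for the interaction, since FPKM were scaled within each table. Gstp2, with 7 to 267 reads a library, is the least precise of the genes; with at least 10 counts in every sample it was not tested in controls.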
